A study of Arabidopsis thaliana with 30 samples.

Results

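The transcripts described here are those of 41 Arabidopsis thaliana genes that encode the machinery of chromosome replication, from the loading of the replicative helicase at origins to the joining of the finished strands. They were taken by name from a list of this machinery, and all 41 are among the 20404 genes of the deposited table of normalised read counts. They fall into 8 sub-complexes, namely the MCM2-7 helicase (6 genes), the origin recognition complex ORC (7), the CDC6 and CDT1 loaders (4), CDC45 with the GINS complex and MCM10 (6), DNA polymerase alpha with its primase (4), DNA polymerases delta and epsilon (4), PCNA with its loader RFC (7), and FEN1, LIG1 and ETG1 (3). All 41 passed the filter on low values and were tested among 20256 genes.

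Bulk RNA-seq was carried out on 7-day-old seedlings of 5 genotypes, each with MMS and with mock treatment, in 10 groups of 3 libraries (30 libraries). The genotypes were X (h2a.x-1, a mutant of the histone variant H2A.X), W (h2a.w-2, a mutant of the heterochromatic variant H2A.W), XW (h2a.x/w-2, which combines both), tsk (a mutant of TONSOKU, a chromatin reader at replication forks) and Col, the wild type Columbia background that every line shares. MMS is methyl methanesulfonate, an alkylating agent whose adducts block replication forks, and the labels give neither its dose nor its duration. The series asks, by its title, how TONSOKU is brought to chromatin by the tails of H2A.X and H2A.W. The labels name the tissue as leaves while the protocol speaks of whole seedlings grown on half-strength Murashige and Skoog medium in long days. Root marker genes were present in every library, with a summed normalised count of 3442 to 3744 over 7 genes in Col mock, beside 456978 to 472043 over 6 leaf genes. Nothing in the labels says whether the 3 replicates were separate sowings, so the p-values measure the spread between these samples, which may be technical.

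Reads in the listed genes came to between 15343687 and 25115027 per library. TSK, the gene mutated in tsk, had a normalised count of 53.2 ± 7.15 in tsk mock, against 155 ± 7.13 in Col mock (mean ± SD, n = 3 each). HTA6, which encodes an H2A.W, was at 798 ± 35.9 in W mock and 1006 ± 50.6 in XW mock, against 1144 ± 38.5 in Col mock. Among the other H2A.X and H2A.W genes, HTA7 was at 634 ± 9.66 in W mock, HTA12 at 199 ± 6.64, HTA3 at 1189 ± 27.9 and HTA5 at 1592 ± 58.1. In Col mock these were at 741 ± 51.2, 144 ± 17.7, 594 ± 38.2 and 1040 ± 10.4. Of TSK and the 5 H2A genes, 3 were called higher and 1 lower in W under mock, and 3 higher and none lower under MMS. In X mock HTA3 was at 514 ± 25.5. HTA5, which encodes an H2A.X, was at 191 ± 19.0 in X mock, but at 916 ± 37.2 in the libraries labelled XW under mock, against 1040 ± 10.4 in Col mock. Under MMS HTA6 was at 347 ± 25.7 in W and 922 ± 75.1 in the libraries labelled XW, against 353 ± 20.4 in Col, and HTA5 at 216 ± 19.0 in X and 1071 ± 136 in the libraries labelled XW, against 910.3 ± 64.7 in Col. Of 6 genes checked (TSK and 5 H2A.X and H2A.W genes) 5 were called above Col in the libraries labelled XW given MMS, with a log2 fold change of 1.38 for HTA6 (limma adjusted p = 8.6e-14) and 0.23 for HTA5 (adjusted p = 0.038). None of the 5 H2A genes was called lower than Col in the libraries labelled XW under MMS, and every direction given below for XW is that of the libraries with this label. Replicate 1 of XW mock also lay apart from the other two of its group, with a chi-square per degree of freedom of 17.1 and 18.5 against them, where those differed from each other by 2.47 and pairs in the other groups by 2.05 to 8.28. Results that rest on XW mock are therefore given with and without it.

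Eukaryotic cells license origins in G1, when ORC, CDC6 and CDT1 load the ring of MCM2 to MCM7 onto DNA as an inactive helicase. In S phase CDC45, GINS and MCM10 turn it into the active helicase, polymerase alpha-primase lays down primers, polymerases epsilon and delta extend the leading and lagging strands on the sliding clamp PCNA that RFC loads, and FEN1 and DNA ligase 1 finish the lagging strand. In plants, as in animals, many of these genes are transcribed under E2F transcription factors, which are held in check by the retinoblastoma protein RBR1, so their transcripts mark tissue with dividing cells such as the seedling's meristems and young leaves. In bulk samples such as these, fewer cells of a type and less RNA per cell cannot be told apart.

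E2F factors bind a short word, of which the 8 forms TTTCCCGC, TTTGGCGC, TTTCGCGC, TTTGCCGC, TTTCCCGG, TTTGGCGG, TTTCGCGG and TTTGCCGG were searched. Other forms were not searched, and an E2F word means below only a form among these 8. The promoters of the 41 genes were read from the TAIR10.1 genome, 250 bases before to 50 bases after each annotated transcript start (300 bases), and searched for these words on both strands, counting words that overlap one another. A word was found in 19 of the 41 promoters (46.3%), against 793 of the 20256 tested genes (3.92%). The form TTTCCCGC alone was found in 14 of 41 (34.1%), against 171 of 20256 (0.844%). By sub-complex the word stood in 5 of 6 MCM genes, 5 of 7 ORC genes, 2 of 4 loader genes, 2 of 6 genes of the CDC45, GINS and MCM10 group, 3 of 4 polymerase alpha-primase genes, 1 of 4 polymerase delta and epsilon genes, 0 of 7 PCNA and RFC genes, and 1 of 3 in the last group. The windows of 60 bases below are printed 5′ to 3′ on the strand of the gene, with the E2F word of either orientation in capitals. They are shown because they belong to the members whose transcripts differed most clearly between XW and Col under MMS, or that carry the word in a sub-complex where it was rare. All lie upstream of the annotated transcript start and touch no annotated exon.
MCM2 promoter, chr1:16970154-16970213, plus strand: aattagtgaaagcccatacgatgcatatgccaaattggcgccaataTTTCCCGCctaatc
MCM3 promoter, chr5:18773732-18773791, minus strand: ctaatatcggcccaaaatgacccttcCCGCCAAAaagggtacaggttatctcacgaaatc
MCM4 promoter, chr2:7130731-7130790, minus strand: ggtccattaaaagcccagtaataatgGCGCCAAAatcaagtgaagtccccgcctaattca
MCM5 promoter, chr2:3527501-3527560, minus strand: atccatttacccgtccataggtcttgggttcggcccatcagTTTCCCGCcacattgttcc
MCM6 promoter, chr5:18010680-18010739, minus strand: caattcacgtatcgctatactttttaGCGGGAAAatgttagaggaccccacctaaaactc
ORC3 promoter, chr5:5474294-5474353, plus strand: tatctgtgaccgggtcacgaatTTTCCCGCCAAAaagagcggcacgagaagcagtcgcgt
CDT1A promoter, chr2:13328802-13328861, plus strand: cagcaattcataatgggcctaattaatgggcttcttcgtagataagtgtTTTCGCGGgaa
CDC45 promoter, chr3:9143856-9143915, plus strand: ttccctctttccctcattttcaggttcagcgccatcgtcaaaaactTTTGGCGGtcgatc
POLA1 promoter, chr5:26776876-26776935, plus strand: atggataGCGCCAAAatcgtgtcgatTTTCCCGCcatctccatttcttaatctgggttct
PRIM1 promoter, chr5:16760786-16760845, plus strand: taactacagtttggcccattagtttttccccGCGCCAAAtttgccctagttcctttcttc
FEN1 promoter, chr5:9315551-9315610, minus strand: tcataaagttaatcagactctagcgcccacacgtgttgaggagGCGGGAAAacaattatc
A pair of overlapping words, TTTCCCGC forward and its partner on the other strand, forms the single block of capitals in ORC3, while POLA1 holds 2 separate words and the other windows printed hold 1 each. A match describes letters in a window and not a bound site, and the absence of a match in MCM7, CDC6A, MCM10 or PCNA1 says only that none of the 8 forms stands in those 300 bases.

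Levels were compared between genes only as normalised count per kb of annotated exon. In Col mock they spanned more than an order of magnitude, from LIG1 (403 ± 18.8 per kb), the ligase that seals nicks between Okazaki fragments, and PCNA2 (364 ± 41.9 per kb) at the top to CDC6B (14.1 ± 5.71 per kb) and ORC1A (7.74 ± 1.11 per kb) at the bottom (SD, n = 3). Most clamp and loader genes were among the more abundant, with RFC3 at 334 ± 11.4, RFC4 at 324 ± 11.5, PCNA1 at 283 ± 10.7, RFC5 at 242 ± 11.8 and RFC1 at 196 ± 6.67 per kb, whereas RFC2 was at 129 ± 10.8 per kb, rank 19 of 41, and the ranges of the libraries of RFC3 and RFC4 overlapped. The 6 helicase subunits lay between 129.0 ± 8.92 per kb for MCM6 and 284 ± 10.5 per kb for MCM7. MCM4, MCM2 and MCM3 (186 ± 8.12, 183 ± 2.97 and 180.4 ± 9.40 per kb) did not differ beyond their spread, while the libraries of MCM7 and MCM5 lay above those of MCM6 without overlap. The mean levels of the ORC subunits were all below those of the helicase they load, from 7.74 ± 1.11 per kb for ORC1A to 123 ± 6.82 per kb for ORC4, whose libraries overlapped those of MCM6.

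The first question was what MMS does to these transcripts in each genotype. MMS lowered the replication genes as a body. In Col, 33 of the 41 fell and none rose by limma with Benjamini-Hochberg (BH) adjustment at 0.05, with a median log2 fold change of -0.92, while 71.1% of all tested genes passed in either direction (35.6% lower) around a median of 0.01. In X, 34 fell and 1 rose (median -0.85; 73.1% of all genes called, 36.9% lower), in W 33 fell and 1 rose (median -0.84; 72.9%, 36.8% lower), and in tsk 32 fell and 1 rose (median -0.74; 71.1%, 35.6% lower). In the FPKM table the tsk split was 29 and 6. In XW, 26 fell and 3 rose, with a median of -0.44 (71.7% of all genes called, 35.5% lower), and the same numbers, 26 and 3, were called without replicate 1 of XW mock. The number that rose in XW was 6 in the FPKM table, 5 with edgeR or TMM scaling, and 1 with only the groups compared or without replicate 2 of XW under MMS.

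The median fall in Col differed among the sub-complexes. It was largest for the loaders (4 of 4 genes fell, median -1.303), followed by the MCM helicase (6 of 6, median -1.15), ORC (7 of 7, median -1.06) and polymerase alpha-primase (4 of 4, median -1.01). The CDC45, GINS and MCM10 group had a median of -0.69 (4 of 6 fell), polymerases delta and epsilon -0.50 (3 of 4), FEN1, LIG1 and ETG1 -0.48 (2 of 3), and PCNA with RFC -0.14 (3 of 7). In XW the medians were closer to 0, namely -0.75 for the loaders, -0.57 for the helicase, -0.43 for ORC, -0.58 for polymerase alpha-primase, -0.28 for the CDC45 group, -0.09 for polymerases delta and epsilon, -0.18 for the last group and -0.09 for PCNA with RFC. No test compared one sub-complex with another, and genes of a sub-complex are not replicates of it.

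**Figure D1:**
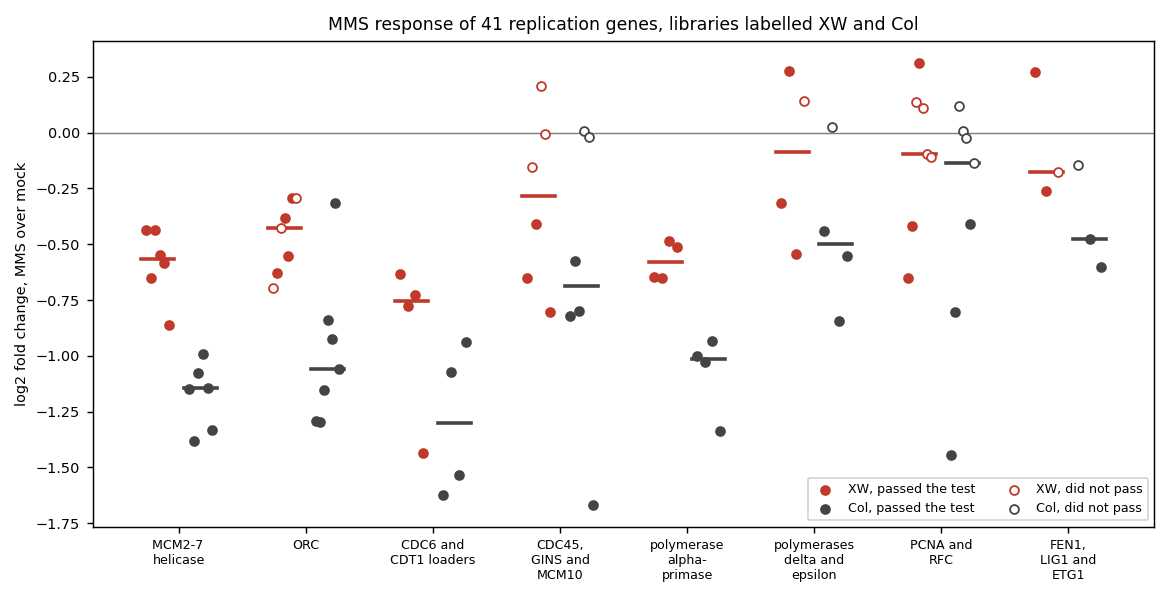
Log2 fold change of MMS over mock for each of the 41 genes (points), by sub-complex along the x axis, with XW in red on the left and Col in dark on the right of each pair; filled points passed at a BH-adjusted p of 0.05 and short lines are medians. In Col the medians of the helicase, ORC, loader and primase genes lie at or below -1.01, with ORC5 at -0.31, PCNA with RFC has a median of -0.14, with RFC4 at -0.41, and the XW medians lie closer to 0 than the Col medians in every sub-complex.

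The share of the mock level that was left under MMS gives the same contrast on a linear scale. The median over the 41 genes was 55.1% in X, 56.0% in W, 73.9% in XW and 59.8% in tsk, against 52.9% in Col. It was higher in XW than in Col for 40 of the 41 genes, with CDT1B as the exception, and higher than in Col for 36 genes in tsk, 22 in X and 20 in W. For the MCM helicase the median share left was 67.1% in XW (55.0% to 74.1% over the 6 subunits), against 45.2% in Col (38.2% to 50.2%), so that the ranges of the subunits did not overlap. For polymerase alpha-primase it was 66.5% in XW (63.3% to 71.4% over 4 genes), against 49.4% in Col (39.2% to 52.2%). Without replicate 1 of XW mock the XW medians were 72.4% over all members (38 of 41 above Col), 62.4% for the helicase and 63.4% for polymerase alpha-primase. These shares are ratios of group means and carry no test of their own, and no such counts over all tested genes are set beside them. On the log2 scale the median response difference from Col was 0.41 over the members and 0.02 over all tested genes in XW. In tsk it was 0.26 over the members and 0 over all tested genes.

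The second question was how each mutant differed from Col under the same treatment. Under MMS, XW stood far from Col, with 30 of the 41 genes higher and 1 lower (median log2 fold change 0.53), against 25.3% of all tested genes called and 12.8% called higher. The tsk mutant had 12 genes higher and 2 lower under MMS (median 0.19; 30.3% of all genes, 12.8% higher). In the FPKM table tsk had 20 higher and none lower. W had 3 higher and none lower, where 11.7% of all genes passed (7.75% higher and 3.93% lower), and X had 2 higher and none lower, where 11% passed (6.46% higher and 4.5% lower). The FPKM table gave 1 higher and 1 lower for X. Under mock the differences were few. X had none, where 7.48% of all genes passed (4.29% higher and 3.2% lower). W had 5 higher, where 13.1% passed (6.05% higher and 7.08% lower). XW had 3 higher and 1 lower, where 25.3% passed (11.8% higher and 13.5% lower), and 3 and 0 in the FPKM table. For tsk 5 were higher and 3 lower, where 26% passed (10.9% higher and 15.1% lower), and the split was 7 and 2 in the FPKM table and 5 and 5 with edgeR. Without replicate 1 of XW mock, 4 were higher in XW and none lower. For W, XW and tsk under mock and for X and W under MMS the share of the 41 genes called in either direction was thus below that of all genes. By direction, the share called higher was above that of all genes for W (6.05%) and tsk (10.9%) under mock. Every mutant was set against the same 3 Col libraries within a treatment, so the comparisons share their controls.

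**Figure D2:**
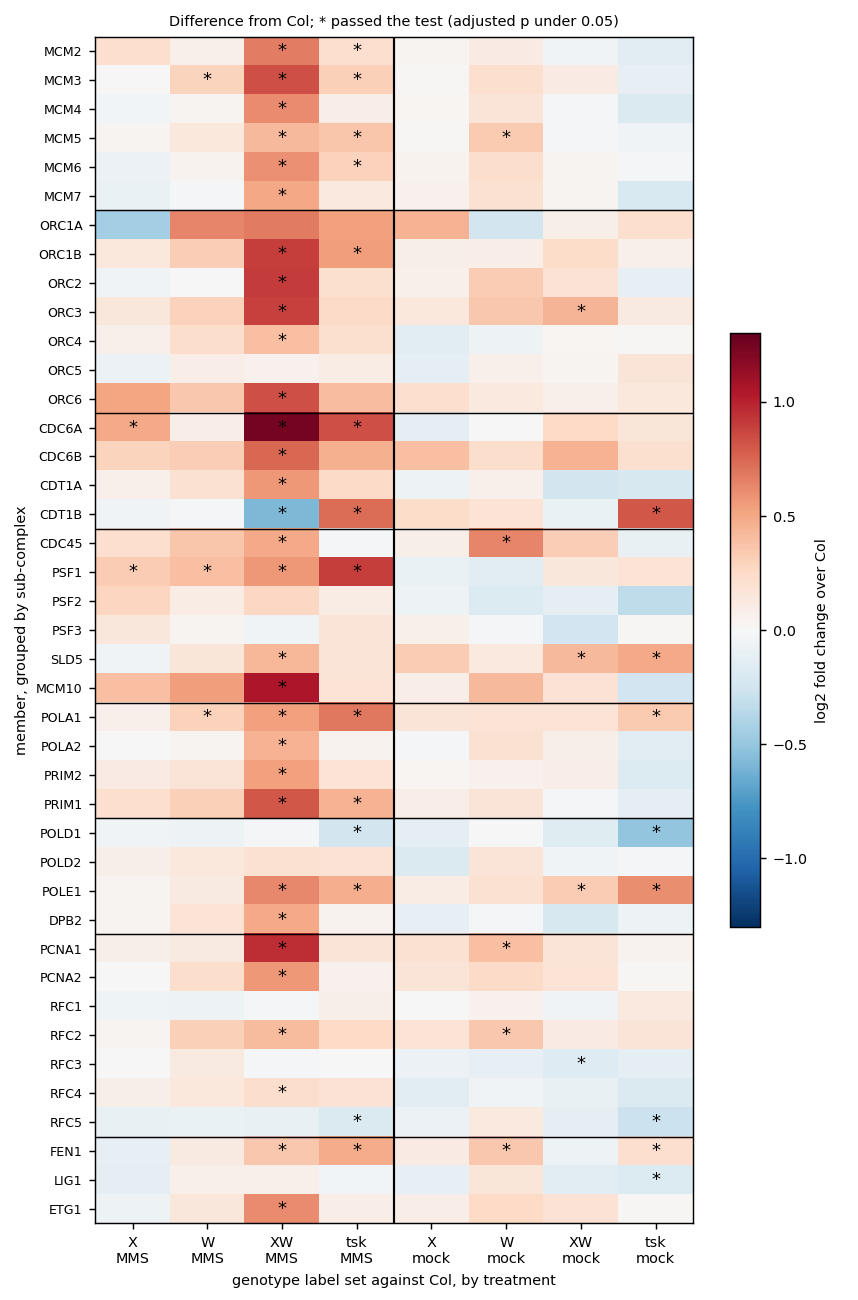
Log2 fold change of each mutant over Col for the 41 genes (rows, by sub-complex), under MMS and then under mock for X, W, XW and tsk (columns), with colour from lower (blue) to higher (red) than Col and a star where the BH-adjusted p was under 0.05. The XW column under MMS holds 30 starred red cells and 1 starred blue cell, CDT1B, while the mock columns hold few stars.

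The third question was whether the response to MMS itself differed between a mutant and Col, which an interaction term in the same limma fit tested. In XW the response was less negative than in Col for 15 of the 41 genes and more negative for none (median difference 0.41 on the log2 scale), while 8.92% of all genes passed (3.85% in this direction and 5.07% in the other). The 15 were all 6 MCM genes, CDC6A, CDT1A, MCM10, POLA1, PRIM2, PRIM1, DPB2, PCNA1 and FEN1, and no ORC gene was among them, although the 7 ORC genes had a median difference of 0.60 (7 of 7 above 0), beside 0.60 for the 6 MCM genes. Without replicate 1 of XW mock, 12 of the 15 passed, and MCM6 (0.41, adjusted p = 0.0794), MCM10 (0.77, adjusted p = 0.101) and POLA1 (0.26, adjusted p = 0.144) did not. These calls also depended on other libraries of the 12 in the contrast: leaving out any one of 10 ended that of POLA1, any one of 7 that of MCM10 and any one of 4 that of MCM6. In tsk 3 genes passed, MCM5, PSF1 and RFC4, all less negative in tsk, where 2.49% of all genes passed (1.37% in this direction and 1.13% in the other). The MCM5 call was lost without any one of 6 of the 12 libraries (adjusted p = 0.0523 to 0.101). In W only PSF1 passed (7.02% of all genes, 4.4% and 2.62%) and in X none (1.99%, 1.08% and 0.908%).

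In the MCM2-7 helicase, the ring that unwinds parental DNA, every subunit moved the same way. Each of the 6 genes fell under MMS in each of the 5 genotypes, and each was above its Col level in XW seedlings given MMS (log2 fold changes 0.42 to 0.84) and had a smaller response in XW (0.45 to 0.73). MCM3 (AT5G46280, chr5:18769649-18773706, minus strand) had normalised counts of 369.6, 349.7 and 407 in XW under MMS and 514, 589.8 and 677 in XW under mock, against 217, 195 and 216 in Col under MMS and 564, 564 and 515 in Col under mock. Its 3 XW libraries under MMS were all above the Col libraries under MMS and all below both mock groups, whose ranges overlapped. The difference between XW and Col under MMS had log2 fold change 0.84, SE 0.09, adjusted p = 2.6e-08 by limma, and the difference of the responses was 0.73 with SE 0.12 and adjusted p = 0.00015.

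MCM2 (AT1G44900, chr1:16970214-16974753, plus strand) had normalised counts of 400.1, 404 and 454 in XW under MMS and 543, 552 and 606 in XW under mock, against 278, 279 and 235 in Col under MMS and 587, 591 and 573 in Col under mock. The libraries of XW under MMS lay above those of Col under MMS without overlap, and its response difference was 0.71 (SE 0.11, limma adjusted p = 8.1e-05). MCM7 (AT4G02060, chr4:900636-905591, plus strand), the subunit whose fall in Col had the smallest adjusted p, had 405, 408 and 456 in XW under MMS and 756, 792 and 759 in XW under mock, against 287, 336 and 273 in Col under MMS and 763, 771 and 719.8 in Col under mock. All Col libraries under MMS were far below those under mock, and the fall had log2 fold change -1.33, SE 0.08, adjusted p = 4.6e-15. MCM7 alone of the 6 holds no E2F word in its 300 bases, and its difference between XW and Col under MMS (0.51, limma adjusted p = 1.5e-05) lay between that of MCM5 (0.42) and that of MCM6 (0.60). Under mock no MCM gene differed between XW and Col, and the 6 log2 fold changes ran from -0.04 to 0.11. For MCM2 under mock the 95% interval of that log2 difference was -0.21 to 0.12.

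Replicate 1 of XW mock was the lowest of its group for all 6 MCM genes. Without it all 6 response differences were smaller, from 0.36 for MCM5 to 0.68 for MCM2, and 5 of the 6 passed while MCM6 did not. In tsk under MMS, MCM2, MCM3, MCM5 and MCM6 were higher than in Col, by 0.22, 0.31, 0.36 and 0.30 on the log2 scale. Of these only MCM5 kept its call when any 1 library was left out, whereas MCM2 fell to an adjusted p of 0.131 to 0.258, MCM6 to 0.102 to 0.143 and MCM3 to 0.0611. Set against tsk directly under MMS, XW was higher for 5 of the 6 subunits, with log2 fold changes of 0.29 (MCM6) to 0.53 (MCM4), and MCM5 was at 0.06 (95% interval -0.09 to 0.21).

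ORC binds origins and recruits the loaders. All 7 ORC genes fell under MMS in Col, from -0.31 for ORC5 to -1.29 for ORC1B, and 5 were higher in XW given MMS than in Col. ORC4, the subunit whose fall in Col had the smallest adjusted p, had normalised counts of 143, 145 and 145 in XW under MMS and 209, 224 and 203 in XW under mock, against 98.2, 132 and 101 in Col under MMS and 221, 199 and 206 in Col under mock. The Col libraries under MMS were below all mock libraries and below all XW libraries under MMS, and the fall in Col had log2 fold change -0.92, SE 0.10, adjusted p = 6.2e-09 by limma. ORC3 (AT5G16690, chr5:5474366-5480067, plus strand) had 135, 108 and 144 in XW under MMS and 165, 165 and 173 in XW under mock, against 61.9, 76.8 and 67.8 in Col under MMS and 120.1, 114 and 137 in Col under mock. XW was above Col without overlap under both treatments, with log2 fold change 0.89, SE 0.13, adjusted p = 5.6e-06 under MMS and log2 fold change 0.44, SE 0.13, adjusted p = 0.012 under mock. The mock difference had an adjusted p of 0.0596 without replicate 2 of Col mock, and was called without replicate 1 of XW mock. ORC3 is thus a gene whose XW level was already raised under mock, and its response difference of 0.46 did not pass (adjusted p = 0.12).

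ORC1 exists as a pair in Arabidopsis. ORC1B had normalised counts of 115, 103 and 135 in XW under MMS and 176, 165 and 205 in XW under mock, against 48.1, 65.5 and 76.1 in Col under MMS and 163, 151 and 148 in Col under mock, with XW above Col under both treatments and a log2 fold change under MMS of 0.90 (SE 0.16, limma adjusted p = 0.00013). The mock difference of 0.23 for ORC1B did not pass by limma (adjusted p = 0.31). ORC1A had only 7.99, 16.2 and 14.3 in XW under MMS and 21.0, 20.2 and 20.5 in XW under mock, against 8.84, 7.16 and 6.26 in Col under MMS and 22.7, 17.3 and 18.8 in Col under mock, groups that overlapped between XW and Col, and an estimate of 0.67 that did not pass (adjusted p = 0.16). The ORC1A transcript rested on 2 to 31 reads per library, is 89.7% identical to ORC1B over 2467 aligned bases and has 36.3% of its exon bases overlapped by a gene on the other strand, so its values are uncertain. ORC2 and ORC6 were also above the Col level in MMS-treated XW (0.91 and 0.84). ORC5, at 0.05 with a 95% interval of -0.14 to 0.24, fell by like amounts in all 5 genotypes, from -0.39 in tsk to -0.26 in X, and is the ORC gene with the smallest fall in Col.

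CDC6 and CDT1 bring the helicase to ORC, and the 2 genes for CDT1 differed from Col in opposite directions in XW under MMS. CDT1A (AT2G31270, chr2:13328862-13331831, plus strand) had normalised counts of 157, 141 and 161 in XW under MMS and 258, 264 and 241 in XW under mock, against 105, 99.3 and 105 in Col under MMS and 311, 317 and 274 in Col under mock. Under MMS XW lay above Col, and under mock below it, in both cases without overlap, with log2 fold change 0.56, SE 0.12, adjusted p = 0.00066 under MMS and a mock difference of -0.24 that did not pass (adjusted p = 0.14). The response difference was 0.80 (SE 0.17, limma adjusted p = 0.0018). CDT1B (AT3G54710, chr3:20251812-20254323, plus strand) had 54.5, 43.2 and 36.9 in XW under MMS and 126, 113 and 126 in XW under mock, against 69.7, 60.4 and 70.9 in Col under MMS and 124, 149.97 and 116 in Col under mock. Under MMS its XW libraries were all below those of Col, with log2 fold change -0.58, SE 0.15, adjusted p = 0.0058, while the mock groups overlapped. It was the one gene of the 41 that was lower in XW under MMS, and without replicate 3 of XW under MMS the call was lost at -0.45 and an adjusted p of 0.0519. In tsk the CDT1B transcript went the other way, with 90.6, 115 and 132 under MMS and 221, 221 and 240.4 under mock, above Col without overlap in both treatments (0.73 under MMS, adjusted p = 0.00061; 0.81 under mock, adjusted p = 0.00026). The log2 fold change of XW over tsk was -1.31 under MMS (adjusted p = 1.9e-07).

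CDC6A (AT2G29680, chr2:12689171-12693121, plus strand) had 77.7, 90.7 and 87.2 in XW under MMS and 133, 133 and 131 in XW under mock, against 43.2, 27.6 and 36.5 in Col under MMS and 108, 117 and 108 in Col under mock. XW was above Col in both treatments without overlap, and the difference under MMS had log2 fold change 1.25, SE 0.15, adjusted p = 3.1e-07, the largest log2 difference between XW and Col under MMS among the 41. The mock difference of 0.26 did not pass by limma (adjusted p = 0.22). The response difference was 0.99 (adjusted p = 0.0022). Under MMS tsk had 54.4, 70.9 and 67.0, also above Col (0.84, adjusted p = 7.4e-05). X had 43.1, 59.1 and 49.2, a range that overlapped Col, with a log2 fold change of 0.50 (adjusted p = 0.028) that was lost without any one of 4 libraries. CDC6B, with 21.8, 19.4 and 21.0 in XW under MMS and 30.2, 37.4 and 41.9 in XW under mock, against 15.7, 10.2 and 10.4 in Col under MMS and 27.8, 38.8 and 16.4 in Col under mock, was thin at 10 to 41 reads per library. It passed for XW against Col under MMS (0.75, adjusted p = 0.046) but not when any one of 5 of the 6 libraries was left out. CDC6A and CDC6B are 83.1% identical over 711 aligned bases.

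**Figure D3:**
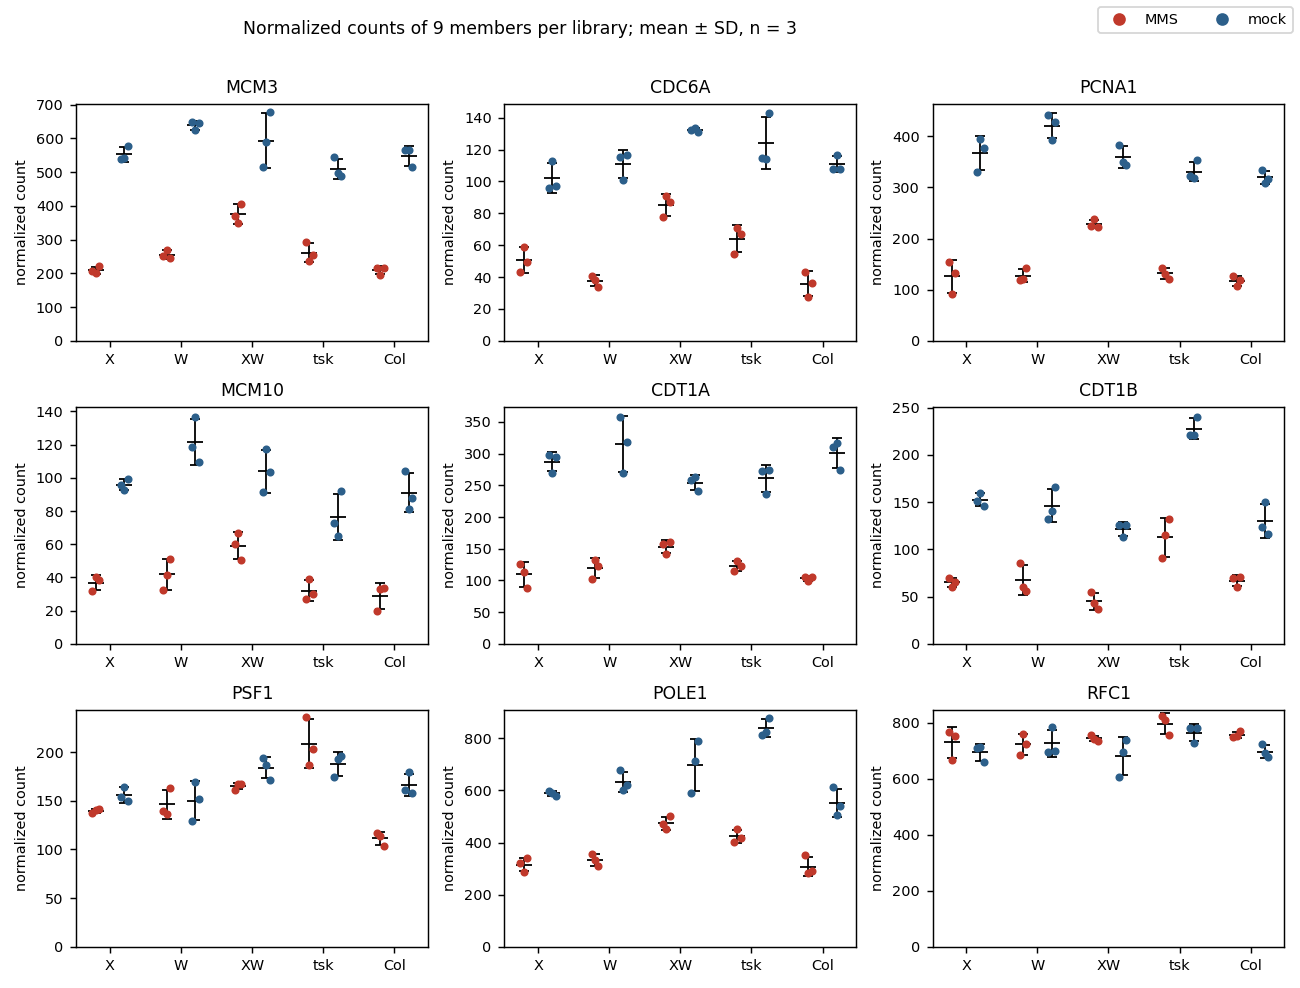
Normalised counts per library of 9 genes (panels), by genotype on the x axis (X, W, XW, tsk, Col), with MMS left of mock within each genotype, points for single libraries and bars for the mean ± SD (n = 3). MCM3, CDC6A, PCNA1, MCM10 and CDT1A are above Col in XW given MMS. CDT1B is below Col in XW under MMS and above Col in tsk under both treatments. PSF1 and POLE1 are higher in both XW and tsk under MMS, and RFC1 passed in no comparison.

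CDC45, the 4-subunit GINS complex and MCM10 convert the loaded ring into a working helicase. In this group 4 of 6 genes fell under MMS in Col and 4 of 6 were called for XW over Col under MMS. MCM10 (AT2G20980, chr2:9011344-9013963, minus strand) fell more than any other of the 41 in Col. Its normalised counts were 60.3, 66.9 and 50.3 in XW under MMS and 91.4, 117 and 103 in XW under mock, against 19.6, 32.7 and 33.4 in Col under MMS and 104, 80.9 and 87.9 in Col under mock. XW lay above Col under MMS without overlap while the mock groups overlapped, with log2 fold change 1.05, SE 0.19, adjusted p = 0.00016 under MMS and, for the fall in Col, log2 fold change -1.67, SE 0.19, adjusted p = 9.5e-09. CDC45 was higher in XW given MMS than in Col (0.49, adjusted p = 0.008), a call that was lost when either of 2 libraries was left out, and higher in W than in Col under mock (0.63, adjusted p = 0.0019).

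Of the GINS genes, PSF1 was the one called above Col under MMS in all 4 mutants, though not firmly in X and W. Its counts under MMS were 137, 140.1 and 141 in X, 139, 136 and 163 in W, 161, 167 and 167 in XW and 236, 187 and 203 in tsk, against 117, 114 and 103 in Col. Under mock they were 154, 165 and 149 in X, 129, 169 and 152 in W, 194, 187 and 172 in XW and 174, 193 and 196 in tsk, against 161, 179 and 158 in Col. In none of the 4 mutants did the MMS range overlap that of Col under MMS, and in tsk the MMS and mock ranges overlapped. The X call under MMS was lost without any one of the 6 libraries compared (limma adjusted p = 0.0553 to 0.163). It was not made by edgeR or DESeq2. The W call under MMS was lost without either of 2 libraries (limma adjusted p = 0.0701 to 0.0915). PSF1 fell under MMS in Col (-0.57, adjusted p = 1.4e-05) and did not pass in tsk, where the estimate was 0.15 (adjusted p = 0.2). The response difference was 0.72 in tsk (SE 0.15, limma adjusted p = 0.0049), which held without any 1 library, and 0.54 in W (adjusted p = 0.021), which did not.

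PSF2 fell in all 5 genotypes and differed from Col in none. PSF3 passed in no comparison, and its XW difference from Col under MMS was -0.05 (95% interval -0.27 to 0.18). SLD5 was higher in XW under both treatments (0.43 under MMS and 0.42 under mock) and fell under MMS only by the test in X (-0.40) and tsk (-0.35), with -0.02 in Col. By the interaction term the X and tsk responses of SLD5 did not pass as different from that of Col (adjusted p = 0.28 and 0.38). PSF3 is 94.99% identical to AT3G55490 over 739 of its 1062 exon bases, and a stretch of 459 of the 1834 exon bases of SLD5 is 97.6% identical to AT1G19260, so reads may be shared there.

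Polymerase alpha-primase makes the RNA-DNA primers that start every new strand. All 4 genes fell under MMS in all 5 genotypes and all 4 were above the Col level in MMS-treated XW (0.45 for POLA2 to 0.81 for PRIM1). PRIM1 (AT5G41880, chr5:16760846-16764276, plus strand), the catalytic primase subunit, had normalised counts of 138, 159 and 142 in XW under MMS and 176, 219 and 234 in XW under mock, against 85.5, 84.9 and 78.2 in Col under MMS and 217, 188 and 229.8 in Col under mock. XW lay above Col under MMS without overlap, and the mock groups overlapped, with log2 fold change 0.81, SE 0.13, adjusted p = 2.1e-05 under MMS and a response difference of 0.82 (adjusted p = 0.0029). POLA1 (AT5G67100, chr5:26776953-26786431, plus strand), the polymerase subunit, had 379.8, 361 and 387 in XW under MMS and 518, 591 and 670.0 in XW under mock, against 279, 240.5 and 261 in Col under MMS and 552, 507 and 502 in Col under mock. In tsk it had 442, 412 and 397 under MMS and 673, 659.8 and 649.9 under mock, above Col in both treatments without overlap. The differences of tsk from Col were 0.68 (adjusted p = 1.5e-07) under MMS and 0.35 (adjusted p = 0.0019) under mock by limma. POLA1 was the gene of this sub-complex at which XW was not above tsk under MMS, with an estimate of -0.15 (95% interval -0.32 to 0.02). A gene on the other strand overlaps 15.0% of the POLA1 exon bases.

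Polymerase epsilon extends the leading strand and polymerase delta the lagging strand. POLE1 (AT1G08260, chr1:2588854-2606892, plus strand), the catalytic subunit of epsilon, had 472, 451 and 501 in XW under MMS and 590.5, 712 and 789 in XW under mock, against 351, 282 and 289.8 in Col under MMS and 612, 505 and 539 in Col under mock. In tsk it had 404, 451 and 418 under MMS and 813, 825 and 878 under mock. XW and tsk both lay above Col under MMS without overlap, and tsk did so under mock also. The log2 fold changes under MMS were 0.63 in XW (adjusted p = 9.9e-06) and 0.47 in tsk (adjusted p = 0.00029), and under mock 0.33 in XW (adjusted p = 0.0093, lost without replicate 3 of XW mock or replicate 2 of Col mock) and 0.61 in tsk (adjusted p = 1.6e-05). POLE1 fell in every genotype, and no response difference passed. Another gene for the catalytic subunit, AT2G27120, is 90.6% identical to POLE1 over 3697 bases, and 24.4% of POLE1 exon bases are overlapped from the other strand.

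POLD1 (AT5G63960, chr5:25599514-25606841, plus strand), the catalytic subunit of delta, went the other way in tsk. It had 305, 309 and 332 in tsk under MMS and 366, 353 and 339 in tsk under mock, against 376, 367 and 368 in Col under MMS and 521, 480.1 and 512 in Col under mock. The tsk libraries lay below those of Col in both treatments without overlap, with log2 fold change -0.51, SE 0.07, adjusted p = 9e-07 under mock and log2 fold change -0.23, SE 0.07, adjusted p = 0.0073 under MMS. In XW under MMS it was at -0.03 relative to Col (95% interval -0.16 to 0.11). DPB2, the second subunit of epsilon, had 158, 127 and 126 in XW under MMS and 122, 124 and 124 in XW under mock, against 94.3, 116 and 83.4 in Col under MMS and 134, 154 and 141 in Col under mock. Its XW libraries under MMS were above both Col under MMS and XW under mock, whereas in Col the MMS libraries were all below the mock libraries. DPB2 fell under MMS in Col (-0.55, adjusted p = 0.00013) and its XW estimate of 0.14 did not pass (adjusted p = 0.28), and the response difference was 0.70 (SE 0.17, limma adjusted p = 0.0068). POLD2 rose under MMS in X, XW and tsk (0.29, 0.27 and 0.23) and was at 0.03 in Col, but the response differences did not pass (adjusted p = 0.32 in X, 0.23 in XW and 0.5 in tsk). The rise of POLD2 under MMS was no longer called in XW without replicate 2 of XW under MMS (adjusted p = 0.0778) and in tsk without either of 2 libraries (adjusted p = 0.0563 to 0.0609). It shares 12.8% of its exon bases with a gene on the other strand.

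PCNA and most of its loader genes behaved differently under MMS in Col. The clamp genes fell with MMS in all 5 genotypes, while the loader genes RFC1, RFC2, RFC3 and RFC5 did not pass in Col and RFC4 fell there. PCNA1 (AT1G07370, chr1:2263037-2264553, plus strand) had normalised counts of 225, 237 and 222 in XW under MMS and 384, 349 and 345 in XW under mock, against 127, 106 and 119 in Col under MMS and 333, 309.7 and 317 in Col under mock. XW was above Col in both treatments without overlap, with log2 fold change 0.96, SE 0.12, adjusted p = 1.1e-06 under MMS and 0.17 under mock (adjusted p = 0.35). The response difference of 0.79 had an adjusted p of 0.0033 by limma. PCNA2, the more abundant of the pair, had 337, 371 and 381 in XW under MMS and 475, 484 and 495 in XW under mock, against 249, 262 and 226 in Col under MMS and 479, 433 and 379.9 in Col under mock. It was also above Col in XW given MMS without overlap (0.56, adjusted p = 2.9e-05), and its response difference of 0.39 did not pass (adjusted p = 0.056). The pair is 85.6% identical over 792 bases and 23.6% of PCNA2 exon bases are overlapped from the other strand.

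RFC1, the large subunit, passed in no comparison, and its largest MMS estimate was 0.14 in XW. For RFC1 the difference between XW and Col under MMS was -0.02 with a 95% interval of -0.17 to 0.12, which excludes the 0.96 seen for PCNA1. RFC2 rose under MMS in XW (0.31, adjusted p = 0.015) and RFC3 (AT5G27740) in W (0.20, adjusted p = 0.0025). The RFC2 call was lost when any one of 3 libraries was left out. RFC4 fell in X, W and Col (-0.20, -0.23 and -0.41) and not by the test in XW (-0.09) or tsk (-0.03), and its response difference of 0.38 in tsk passed, but leaving out any one of 11 of the 12 libraries in that contrast ended the call. RFC5 was among the 4 genes of PCNA and RFC that fell in W, with 265 ± 17.8 per kb under mock and 207 ± 4.47 under MMS. RFC5 (AT1G77470) was lower in tsk than in Col under both treatments (-0.19 under MMS and -0.28 under mock). The RefSeq symbol of AT1G77470 is RFC3, whereas RFC3 means AT5G27740 throughout this text. The call under MMS was lost without any one of 4 of the 6 libraries (adjusted p = 0.0906 to 0.187) and was absent in the FPKM table, which called no member lower in that comparison.

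FEN1 cuts the flaps of Okazaki fragments, LIG1 seals them, and ETG1 is an MCM-binding protein needed for sister chromatid cohesion in Arabidopsis. FEN1 (AT5G26680, chr5:9311446-9315550, minus strand) had 360.2, 406 and 422 in XW under MMS and 319.9, 344 and 319 in XW under mock, against 327, 298 and 304 in Col under MMS and 351, 341 and 334 in Col under mock. Under MMS the XW libraries were above both the Col libraries and the XW mock libraries, and in Col the MMS libraries were below mock. FEN1 rose under MMS in XW (0.27, adjusted p = 0.002), fell in X (-0.36) and W (-0.38), and had a Col estimate of -0.14 that did not pass (adjusted p = 0.087). The response difference between XW and Col was 0.41 (adjusted p = 0.012). FEN1 was also higher in tsk than in Col under MMS, at 436, 473 and 394, with log2 fold change 0.48, SE 0.07, adjusted p = 1.1e-05. LIG1 had 864, 830.1 and 814 in XW under MMS and 926, 1057 and 1028 in XW under mock, against 826, 786 and 777 in Col under MMS and 1096, 1167 and 1067 in Col under mock. It fell in every genotype, overlapped between XW and Col under MMS, and differed there by 0.07 (95% interval -0.04 to 0.19). LIG1 is 85.7% identical to AT1G49250 over 1819 bases. ETG1 fell in X, W, tsk and Col (-0.76, -0.71, -0.53 and -0.60), had an XW estimate of -0.18 that did not pass, and was higher in XW given MMS than in Col (0.61, adjusted p = 4.2e-05).

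In tsk under mock, 5 members were higher than in Col (CDT1B, SLD5, POLA1, POLE1 and FEN1) and 3 lower (POLD1, RFC5 and LIG1). FEN1 lost the call without any one of 4 libraries (limma adjusted p = 0.0674 to 0.113), and LIG1 without either of 2 (0.0985 to 0.106). For each member the 10 nearest tested genes on either side along the chromosome were also read in this contrast. Around CDT1B 12 of the 20 neighbours were called higher in tsk, with a median log2 fold change of 0.63 beside 0.81 for CDT1B itself. Around SLD5 8 of 20 were called higher (median 0.23, beside 0.49), and around POLA1 5 of 20 (median 0.27, beside 0.35). Around POLE1 0 of 20 were called higher (median -0.15, beside 0.61), around FEN1 1 (median -0.09, beside 0.22) and around POLD1 2 (median -0.12, beside -0.51). Neighbours called lower, the direction of POLD1 itself, were not counted. Of all tested genes 10.9% were called higher and 15.1% lower in this contrast. Most neighbours of CDT1B were thus called in its direction and none of those of POLE1, and the part of the neighbourhood in these values was not tested.

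In X and W few members passed against Col. Under mock no member passed for X, where 3 had an unadjusted p under 0.05, and edgeR and DESeq2 also called none. The largest X estimates were 0.46 for ORC1A and 0.39 for CDC6B, both thinly covered. Under MMS the 2 members higher in X were CDC6A and PSF1 (0.50 and 0.33), and neither call held without each library in turn. In W under mock MCM5, CDC45, PCNA1, RFC2 and FEN1 were higher than in Col (0.34, 0.63, 0.39, 0.35 and 0.35), and the median over the 41 was 0.16. Of the 41, 32 had a positive log2 fold change, and 15 had an unadjusted p under 0.05 by limma, all higher. The calls of PCNA1 and RFC2 were each lost without any one of 5 of the 6 libraries (adjusted p = 0.0566 to 0.11 for PCNA1 and 0.074 to 0.169 for RFC2). In W under MMS MCM3, PSF1 and POLA1 were higher (0.28, 0.39 and 0.30), each lost without some library. There 35 of the 41 had a positive log2 fold change, and 11 had an unadjusted p under 0.05 by limma, all higher. The response of X differed from that of Col for no member by limma, edgeR or DESeq2, and 5 had an unadjusted p under 0.05.

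XW was also set against tsk directly. Under mock 4 members were higher in XW (MCM7, CDC45, PRIM2 and POLD1) and 3 lower (CDT1B, POLE1 and FEN1), where 29.7% of all genes passed (16.8% higher and 12.9% lower). The split was 2 and 6 in the FPKM table and 7 and 3 with edgeR. Without replicate 1 of XW mock 3 were higher and 2 lower, and 3 of the 7 calls (POLD1, CDT1B and FEN1) held when any 1 library was left out. Under MMS 19 were higher in XW and 2 lower, CDT1B and PSF1, with a median of 0.29, where 28.1% of all genes passed (16.4% higher and 11.7% lower). The members higher in XW were 5 of 6 MCM genes, 2 of 7 ORC genes, CDC6A and CDT1A, CDC45 and MCM10, POLA2, PRIM2 and PRIM1, POLD1 and DPB2, PCNA1 and PCNA2, and ETG1. MCM10 (0.87) and PCNA1 (0.79) had the largest of these log2 differences. Of the 21 calls 12 held when any 1 library was left out.

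The members with and without an E2F word in the promoter were described side by side. Under MMS in Col, 18 of the 19 with the word fell (median -1.06), as did 15 of the 22 without it (median -0.53). In XW 14 of the 19 fell and 1 rose (median -0.55), and 12 of the 22 fell and 2 rose (median -0.28). Set against Col under MMS, XW was higher for 17 of the 19 with the word (median 0.60) and for 13 of the 22 without it, with 1 lower (median 0.42). The response difference passed for 10 of 19 with the word and 5 of 22 without. Under mock the medians of XW over Col were 0.04 with the word and 0.06 without. The genes with the word were mostly those of the helicase, ORC and primase, so word and sub-complex cannot be told apart here, and PCNA1, CDC6A and MCM10, 3 of the members with the largest differences between XW and Col, hold none of the 8 forms.

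**Figure D4:**
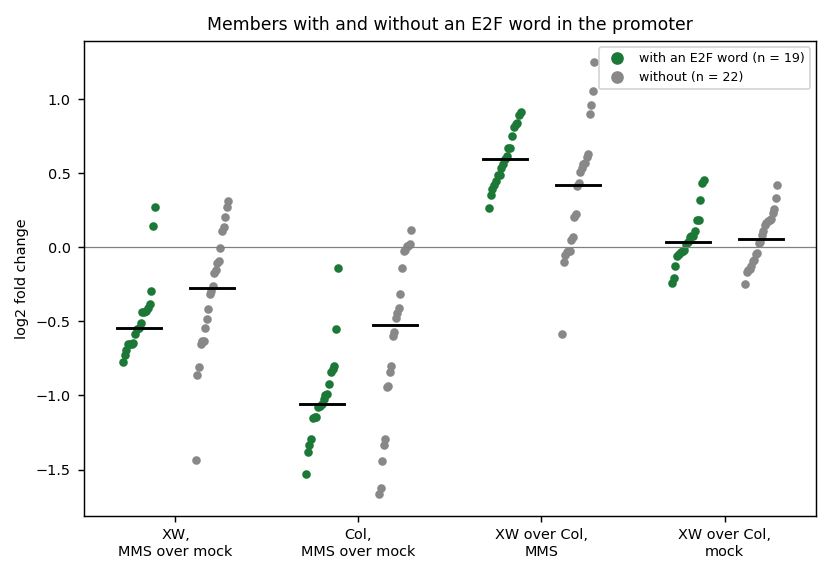
Log2 fold changes of the 19 genes with and the 22 genes without an E2F word in the 300 bases of promoter, for MMS over mock in XW and in Col and for XW over Col under MMS and under mock (points are genes, lines are medians). Genes with the word lie lower than those without under MMS in Col (medians -1.06 and -0.53) and slightly higher in XW over Col under MMS (0.60 and 0.42), with wide overlap.

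Other genes of the S phase were read from lists chosen with earlier results of these data known, to set the members beside them. For XW against Col under MMS, 5 of 5 replicative histone H3 genes were higher (median 1.78), as were 6 of 9 replication protein A genes (median 0.45), 3 of 6 genes of nucleotide supply (median 0.41), 5 of 9 E2F and RBR genes (median 0.32) and 9 of 19 other fork and origin genes, with 1 lower (median 0.28). The histone genes HTR9 (2.07, adjusted p = 5.1e-16) and HTR1 (1.82, adjusted p = 2.5e-17), the small subunit of ribonucleotide reductase TSO2 (1.71, adjusted p = 1.7e-17) and RPA1E (1.35, adjusted p = 6.2e-08), a large subunit of the single-strand binding complex, had larger log2 fold changes than any of the 41 members. The response difference of XW passed for 4 of 5 H3 genes, 3 of 9 replication protein A genes, 3 of 6 nucleotide genes, 0 of 9 E2F and RBR genes and 1 of 19 other fork genes.

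Markers of dividing cells and of organs were read beside these results. Of 17 G2/M genes, 16 fell under MMS in Col (median -1.10), and 9 were above the Col level in MMS-treated XW (median 0.42). Their summed normalised count under MMS was 2272 to 2536 in W, 2189 to 2410 in XW and 1809 to 2073 in tsk, against 1596 to 1745 in Col. W was thus above Col for this sum without overlap, with 12 of 17 genes called higher under MMS, while 3 of the 41 replication genes were. Under mock 10 of 17 G2/M genes were higher in W, 7 in XW and 8 in tsk. Of 8 meristem genes none was above Col in XW given MMS, and their summed count was 1025 to 1185 in XW, against 1127 to 1215 in Col. Leaf genes were higher in XW than in Col for 3 of 6 under MMS, with a sum of 260317 to 277633 in XW, against 222456 to 232517 in Col. Root genes were lower for 2 of 7 and higher for none, with a sum of 1762 to 1956 in XW, against 2187 to 2441 in Col. Neither the leaf nor the root sums overlapped, but each sum is weighted by its most abundant genes. Of the root genes under MMS, PHO1 alone was at 467 ± 37.6 in XW, against 830 ± 91.3 in Col. The median log2 fold change of the 7 root genes was 0.02. Under MMS in Col 6 of 6 leaf genes, 7 of 8 meristem genes and 6 of 7 root genes fell, and 1 root gene rose. The part of dividing cells and of organ make-up in the members' differences was not tested.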

How the data were processed

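The strand of the libraries and the counting of reads shared by overlapping or similar genes are not given in the sources used here. Libraries of 7-day-old seedlings were read from both ends (150 nt each), per the labels' protocols. Reads were aligned with STAR to TAIR10 and normalised with DESeq2 1.30.1, per the submitters' processing notes. The authors deposited a table of normalised read counts, a signal equal to the reads of a gene divided by a size factor of the library, and a table of FPKM. In 30 of 30 libraries 100% of the values were whole multiples of 1 read (tolerance 0.01 of a read), so reads could be recovered, and the 30 files for single libraries held the same values as the table. The FPKM values rest on gene lengths that do not follow the annotated exon lengths, so levels between genes use normalised count per kb of TAIR10.1 exon.

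Since the deposited values are normalised, the tests used trended empirical Bayes in limma 3.58.1 (R 4.3.3), run on log2(normalised count + 1), with 1 coefficient for each of 10 groups, 20 residual degrees of freedom and Benjamini-Hochberg adjustment over all genes of a comparison, and a gene was called at an adjusted p below 0.05. A gene needed a normalised count of 10 or more in 3 or more libraries, which left 20256 genes and removed 148. On this log2(value + 1) scale the fold changes of low genes are understated. The 19 comparisons were MMS against mock in each genotype, each mutant against Col within a treatment, the difference of each mutant's response from that of Col, and XW against tsk. Alternatives were count tests of the recovered reads (edgeR 4.0.16, and DESeq2 1.42.0), the FPKM table with a pseudocount of 0.1, a pseudocount of 5, no filter, TMM scaling, only the groups compared, a replicate block, and each library left out in turn. On the recovered reads edgeR called 14475 genes for MMS in Col and 5232 for XW against Col under MMS, where limma called 14408 and 5132. Depth was 15343687 to 25115027 reads in listed genes per library.

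The members and the 10 lists of other genes (95 genes, 91 in the tables) were chosen with earlier results of these data known. Values of every library are given for the called member of each sub-complex with the smallest adjusted p in MMS against mock in Col, in any mutant against Col, and in any response difference, and for the pairs of ORC1, CDC6, CDT1 and PCNA genes. Tested on simulated data with 20256 genes, the limma step recovered 70 of 100 genes set to a 1.5-fold change and 85 of 100 set to a 2-fold change for XW against Col under MMS, with 3 false calls, and 49 and 77 of 100 for the response difference of XW, with 6 false calls. In that simulation all libraries shared the mean of Col under MMS, and only the changed genes differed, in XW under MMS alone. In the data 25.3% of genes were called for XW against Col under MMS, so these rates need not hold there.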

Additional observations from a re-analysis of the deposited data

Results flagged for a closer look

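The response to MMS differed from that of Col by the interaction term of the limma fit for the following members, each value being the log2 fold change of MMS over mock in the mutant minus that in Col. In XW the helicase genes differed by 0.71 (MCM2), 0.73 (MCM3), 0.64 (MCM4), 0.45 (MCM5), 0.56 (MCM6) and 0.47 (MCM7). The loaders differed by 0.99 (CDC6A) and 0.80 (CDT1A), and MCM10 by 0.86. The primase genes differed by 0.35 (POLA1), 0.45 (PRIM2) and 0.82 (PRIM1), and the polymerase epsilon subunit DPB2 by 0.70. The clamp gene PCNA1 differed by 0.79 and the flap nuclease gene FEN1 by 0.41. In tsk the differences were 0.41 for MCM5, 0.72 for PSF1 and 0.38 for RFC4, and in W 0.54 for PSF1. The tsk values of MCM5 and RFC4 and the W value of PSF1 lost the call when some single libraries were left out, as did the XW values of MCM6, MCM10 and POLA1. PSF1 was thus the member whose response differed from that of Col in both W and tsk, and in XW its difference was 0.42 (adjusted p = 0.07).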

How the results depend on the processing

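Of the 278 calls of members over the 19 comparisons, none turned its direction under any alternative. Calls lost were 9 with DESeq2, 9 with edgeR, 24 with the FPKM values, 5 with TMM scaling, 3 with a pseudocount of 5, 0 with no filter and 32 in a fit of only the groups compared. The labels do not say whether libraries with the same replicate number belong together. Over 45 pairs of same-numbered libraries the correlation of deviations was -0.1056 to 0.0916, which cannot show how the replicates were made. The replicate block lost 4 calls, and gave 14 members for the response difference of XW, 19 for XW against tsk under MMS and 8 under mock. Counts that moved by over 1.5 times were as follows. W against Col under mock had 8 with the FPKM table and 3 to 7 without 1 library. XW against Col under mock had 1 with only the groups compared and 1 to 6 without 1 library. X against Col under MMS had 0 with edgeR, DESeq2 and only the groups compared, and 0 to 1 without 1 library. W against Col under MMS had 0 with only the groups compared and 1 to 4 without 1 library. The response difference of W had 0 with only the groups compared and 0 to 1 without 1 library, and that of tsk had 5 with edgeR and 1 to 4 without 1 library. XW against tsk under mock had 3 with only the groups compared. The cause of these moves was not tested. The counts the text leads with moved less when 1 library was left out, namely 33 to 34 for MMS in Col, 27 to 29 for MMS in XW, 28 to 30 for XW against Col under MMS and 12 to 16 for the response difference of XW. Leaving out 1 library kept 24 of 29 calls of MMS in XW, 26 of 31 of XW against Col under MMS and 8 of 14 of tsk against Col under MMS. The FPKM table moved the median of all genes by 0.107 for MMS in XW, 0.103 in tsk and 0.116 in Col, and the members' median relative to it was -0.43, -0.72 and -0.91. With only the groups compared, the genes called among all tested were 3177 in place of 1516 for X against Col under mock, 3038 in place of 5119 for XW against Col under mock, 1429 in place of 2365 for W against Col under MMS, 1197 in place of 1806 for the response difference of XW and 3979 in place of 6021 for XW against tsk under mock. Depth limits ORC1A (2 to 31 reads per library) and CDC6B (10 to 41).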
